A study of Drosophila melanogaster with 54 samples.

Results

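The regions described here were bound by several Hox proteins when Homothorax (Hth) was present and by no Hox protein when it was absent. They were chosen from the deposited lists of bound regions. The regions of the 8 Hox+Hth groups were merged wherever they overlapped by at least 1 bp, which gave 13984 merged regions, and a merged region was kept when it overlapped the regions of at least 2 Hox+Hth groups and no region of any of the 8 Hox groups without Hth. This left 719 regions, 5.14% of the merged regions, which are called Hth-dependent shared regions, or members. The presence and absence of regions in these 16 lists is what chose the members, so their Hth dependence and their sharing are given as a description with no test.

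Hox proteins are the homeodomain transcription factors that give the segments along the body axis their identity, with Labial (Lab), Proboscipedia (Pb), Deformed (Dfd) and Sex combs reduced (Scr) acting in the head and first thoracic segment, and Antennapedia (Antp), Ultrabithorax (Ubx), Abdominal-A (Abd-A) and Abdominal-B (Abd-B) in the trunk. Extradenticle (Exd) and Hth are homeodomain proteins of the TALE class. Hth binds Exd and takes it into the nucleus, and Exd and a Hox protein can bind next to each other on a composite DNA site in which Exd reads TGAT and the Hox protein reads the adjoining bases. Hth has a binding site of its own, TGACAG.

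All measurements were made by ChIP-seq in Kc167 cells, a Drosophila line of embryonic origin with features of haemocytes, which according to the study do not express Hth and hold Exd in the cytoplasm. In the 8 Hox groups, cells were transiently transfected with a plasmid for 1 Hox protein fused to GFP, and in the 8 Hox+Hth groups the same plasmid also encoded Hth, joined to the fusion by a 2A sequence. A Hth group, with GFP fused to Hth, and an Exd+Hth group, with GFP fused to Exd and untagged Hth, had no Hox protein added and were profiled in the same way. In every group expression came from the metallothionein promoter, which 1 mM copper sulphate switched on for 4 h. Fixation took 10 min in 1% formaldehyde, GFP-positive cells were collected by sorting, and an antibody to GFP was used for the precipitation. Each of the 18 ChIP groups had 2 libraries and a listed input library (identical read totals are given for the inputs of Abd-A and Abd-B), but each list gives a single combined set of regions for a group. No value here therefore has a replicate error, and tests were run over the 8 proteins. The lists hold no read counts, heights or expression values, so the depth behind a region cannot be read from them and the identity of the cells could not be checked against marker genes. The libraries of Ubx, Abd-A and Abd-B came from a different sequencer than all others.

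The sequence followed most closely in these regions was the composite Exd-Hox site, here any of the 8-base words TGATTAAT, TGATTGAT and TGATTTAT on either strand within 200 bp around the centre of a region. The study took this pattern from in vitro Exd-Hox sites and from motifs it found in its own cofactor-enhanced Hox regions. The words are therefore not independent of these data. The centre is the middle of the longest stretch that most Hox+Hth groups of the region had in common, and all groups of the region shared a stretch in 710 of the 719 members. The sites shown here come from members with many proteins and were taken, after their values were seen, from the members of 5 or more groups that held a site, so that head and trunk combinations can be compared. Each is written 5′ to 3′ on the strand of the site, from the Release 6 genome sequence (dm6), with the 8-base word in capitals.
CG46467 and Glut4EF (3R:9959570-9959599, plus strand): gtgacagctgtTGATTGATgaatcctacaa
Dys (3R:19582326-19582355, plus strand): cgtgacgctttTGATTTATgtgtgctgaac
RapGAP1 (2L:7504628-7504657, plus strand): cactccccacaTGATTTATtcgagtctcca
kek2 (2L:11607361-11607390, plus strand): atgtcgtgtgaTGATTAATgagacaatttt
nkd (3L:19031520-19031549, minus strand): gactttgacatTGATTGATtgctctggcag
Ork1 (X:10889298-10889327, plus strand): gcgcggcaagaTGATTAATtgaattgcgat
RpS3 (3R:23360426-23360455, plus strand): cagttgtctgcTGATTTATgaggctgtcct
pxb (3R:15673868-15673897, plus strand): gctgtcgccgtTGATTTATgctgacaaatc
The first 4 lie in regions of 6 or 7 proteins, in introns of the genes named, and Dys encodes dystrophin. The nkd and Ork1 regions, also intronic, overlapped Lab, Pb, Dfd, Scr and Antp with Hth and carry TGATTGAT and TGATTAAT. The RpS3 region, intergenic with a centre 1660 bp from the RpS3 start site, and the intronic pxb region overlapped Scr and the 4 trunk proteins with Hth, and both carry TGATTTAT. In the stretch shown for CG46467 and Glut4EF, 2 genes that overlap each other, a Hth site lies beside the Exd-Hox word.

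Most members were shared by few proteins. Of the 719, 461 (64.1%) overlapped 2 Hox+Hth groups, 150 overlapped 3, 66 overlapped 4, 28 overlapped 5, 7 overlapped 6, 6 overlapped 7 and 1 overlapped all 8. Members were shorter, with a median length of 588 bp, than the 8682 regions of 2 or more Hox+Hth groups that were also bound without Hth, at 899.5 bp, and longer than the 2738 regions of 1 Hox+Hth group that were not bound without Hth, at 417 bp. The rule bears on these lengths, since a longer merged region has more bases in which to overlap a region of another list. They are given as a description. Just outside the rule lay these 2738 regions, which lacked a second protein, and 1256 regions of 2 or more Hox+Hth groups that overlapped exactly 1 Hox group without Hth. Dfd accounted for 2038 of the 2738.

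Dfd was the protein found in most members and Ubx the one found in fewest. Dfd+Hth overlapped 543 members (75.5%), Lab+Hth 337, Abd-B+Hth 230, Pb+Hth 220, Scr+Hth 173, Abd-A+Hth 136, Antp+Hth 134 and Ubx+Hth 95. These counts follow in part the size of each list, since Dfd+Hth overlapped 11683 merged regions and Antp+Hth 2486. As a share of the merged regions of each protein, members made up 8.48% for Lab, 5.39% for Antp, 4.65% for Dfd and 4.60% for Pb, against 2.91% for Abd-B, 2.90% for Scr, 2.61% for Abd-A and 2.13% for Ubx. The share for Lab was thus the highest and that for Ubx the lowest of the 8. The study's read overview lists more mapped reads for both Dfd+Hth libraries than for any other Hox or Hox+Hth library, those of Dfd without Hth included, and the part of depth in the Dfd counts was not tested. Without Dfd the same rule gave 468 members in place of 719.

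**Figure D1:**
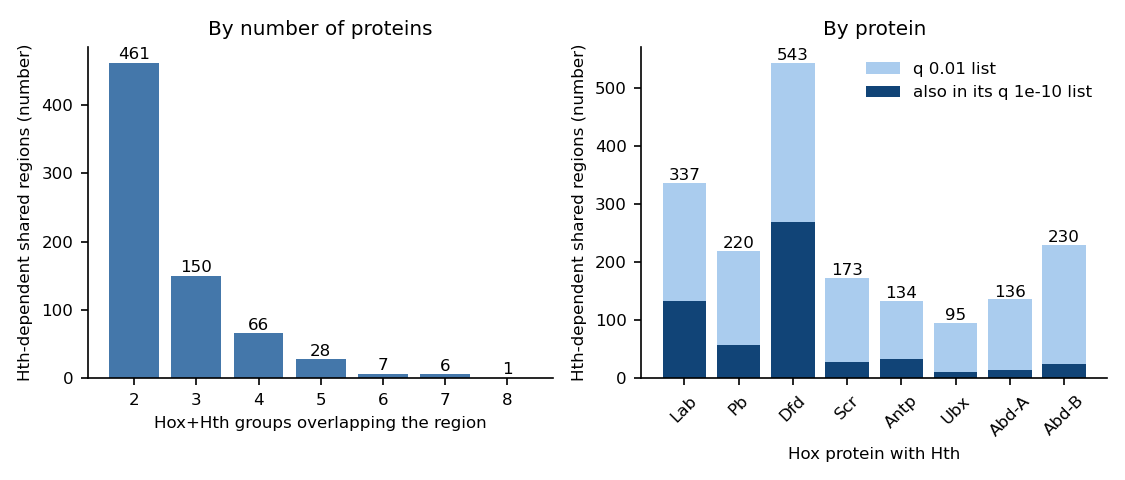
Number of Hth-dependent shared regions by how many Hox+Hth groups overlap them (left) and by protein (right, light bars for the q 0.01 list and dark bars for regions that were also in the q 1e-10 list of that protein). Of the 719 regions 461 overlap 2 groups and 1 overlaps all 8, and Dfd, at 543, has the highest bar of the right panel.

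The most frequent combinations joined another head protein to Dfd. The pair Lab and Dfd alone made up 143 members, Pb and Dfd 85, Dfd and Abd-B 59, the 3 proteins Lab, Pb and Dfd 50, Dfd and Scr 46, Lab and Pb 27, and Abd-A and Abd-B 23. In all, 93 different combinations occurred. Members bound only by proteins of the head group, Lab, Pb, Dfd and Scr, numbered 380 (52.9%), those bound only by the trunk proteins Antp, Ubx, Abd-A and Abd-B numbered 80 (11.1%), and 259 (36.0%) had proteins of both groups. Among trunk combinations the set of all 4, Antp, Ubx, Abd-A and Abd-B, occurred 13 times. Combinations were counted in members only, and list sizes differ between proteins. Whether any combination is particular to members was not tested.

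The partners differed between the proteins. Partner shares were taken in members only, with no matching shares for other merged regions, and they depend on list size. They describe members and do not show a pairing particular to them. Of the Ubx members 68.4% were also Abd-A members and 58.9% Abd-B members, but 11.6% were Lab members and 8.42% Pb members. Of the Pb members 84.1% were Dfd members and 57.3% Lab members, while 3.64% were Ubx members and 4.09% Abd-A members. Of the Abd-B members, the largest trunk set, 57.4% were Dfd members, 36.96% Abd-A, 30.4% Antp and 24.3% Ubx members, so that its most frequent partner was a head protein with the longest list. Antp had partners of both groups, with Abd-B in 52.2%, Dfd in 50.7%, Lab in 46.3%, Ubx in 36.6% and Abd-A in 34.3% of its members. The head proteins and Antp were sequenced on 1 platform and the 3 posterior proteins on the other, so for the latter position along the axis and platform cannot be told apart. Antp was the trunk protein on the platform of the head proteins.

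**Figure D2:**
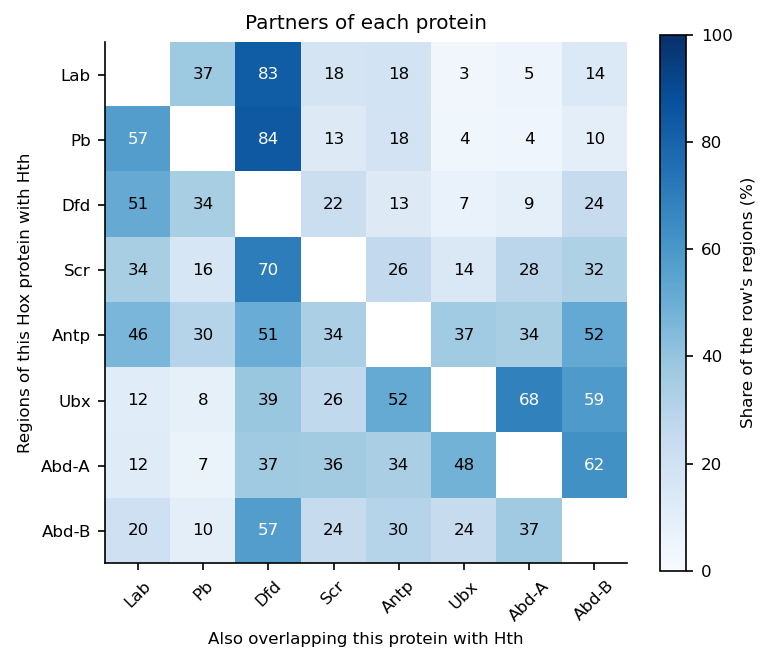
Share (%) of the Hth-dependent shared regions of each protein (rows) that also overlap each other protein with Hth (columns). Dfd is the most frequent partner in the rows of Lab, Pb, Scr and Abd-B (57.4% in the last), Abd-B in those of Antp and Abd-A, and Abd-A in that of Ubx (68.4%).

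Many members were near the limit of detection. At the stricter threshold of q 1e-10, 386 members (53.7%) overlapped a region of at least 1 Hox+Hth group and 333 (46.3%) overlapped none. The matching share of all merged regions is not given here. Regions of 2 or more groups were overlapped by 128 members (17.8%), against 37.2% of all merged regions. That base includes 2738 and 1845 regions of 1 Hox+Hth group, which cannot reach 2. It therefore understates the share in the other shared regions. Only 44 members were in the strict list of every one of their groups. By protein, 269 of 543 Dfd, 134 of 337 Lab, 57 of 220 Pb, 34 of 134 Antp and 29 of 173 Scr members were in its strict list. So were 25 of the 230 Abd-B members, 14 of the 136 Abd-A members and 11 of the 95 Ubx members. The lists differ in the same respect. At q 1e-10 and q 0.01, Dfd+Hth had 8953 and 12050 regions, Lab+Hth 2323 and 4822, and Pb+Hth 2873 and 5692. Antp+Hth had 1041 and 2880, Scr+Hth 3793 and 6598, Abd-B+Hth 5018 and 9027, Abd-A+Hth 3026 and 6506, and Ubx+Hth 2226 and 5656.

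The Exd-Hox site was present in 33.0% of members (237 of 719, 95% Wilson interval 29.6 to 36.5%), against 10.4% of all merged regions. It was found in 17.0% of the regions of 1 protein not bound without Hth and in 7.46% of the shared regions also bound without Hth. The latter regions were longer than members, and the part of length in the site shares was not tested. Intervals here cover the counting of regions only. For the test, the shares were taken among the regions of each protein. Members exceeded shared regions also bound without Hth by 24.3 percentage points (SD 8.38 over the 8 proteins), with the members higher in 8 of 8 proteins (p = 0.0078125 in a two-sided exact permutation test that flips the sign of each protein's difference, the smallest p that 8 proteins allow; Benjamini-Hochberg adjusted p = 0.028125 over 18 tests). Against the regions of 1 protein the excess was 11.03 points (SD 10.4), 7 of 8 proteins were higher, and the difference missed the threshold of 0.05 (adjusted p = 0.0502232 by the same exact test). The exception was Antp, with sites in 42.5% of its 134 members and 48.1% of its 27 single-protein regions. The proteins share members with each other and are not replicates of one condition, so a small p here says that the difference had 1 direction over the proteins. The study had already reported these words as enriched where Exd/Hth enhanced Hox binding in the same experiments. An excess in members is therefore not an independent finding.

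By protein, the share of members with a site was 45.4% for Lab, 44.5% for Pb, 42.5% for Antp, 32.4% for Dfd, 25.2% for Abd-B, 24.3% for Scr, 24.2% for Ubx and 19.9% for Abd-A. In the shared regions also bound without Hth the same proteins had sites in 5.84 to 11.4% of regions. In a window 1 site was present in 186 members, 2 sites in 43 and 3 in 8.

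Sites were concentrated at the centres. In the 50 bp just before the centre 12.4% of members held a site and in the 50 bp just after it 9.87%, against 0.834 to 2.36% in bins more than 500 bp away. The regions of 1 protein had a lower peak. The shared regions also bound without Hth had the lowest, with 2.20% and 2.07% in the bins just before and after the centre. In bins more than 500 bp away they ranged from 1.06 to 1.37%.

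**Figure D3:**
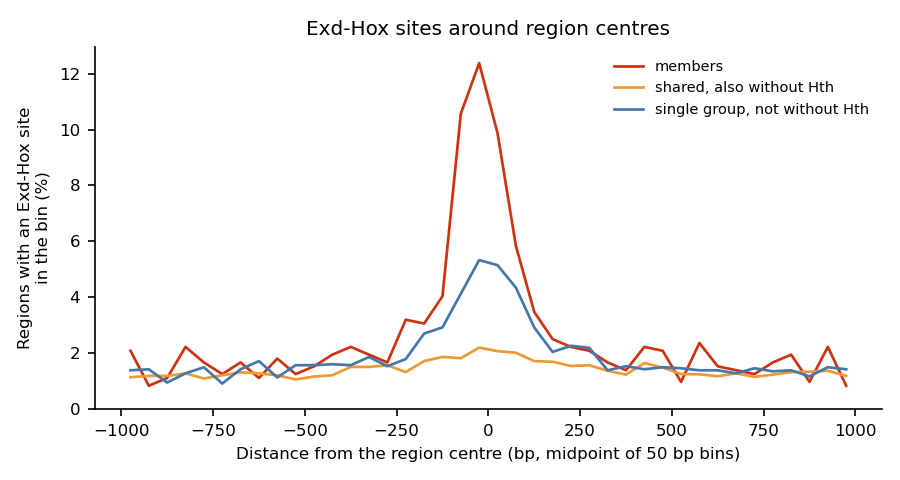
Share of regions (%) with an Exd-Hox site in each 50 bp bin, by distance from the region centre (bp), for members, for regions of 1 Hox+Hth group not bound without Hth, and for shared regions also bound without Hth. The member line reaches 12.4% in the bin before the centre.

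The 3 words were used unequally by the proteins. Over all members TGATTGAT was found in 110 (15.3%), TGATTAAT in 82 (11.4%) and TGATTTAT in 73 (10.2%). Of all 8-base words held by at least 20 members, TGATTGAT had the highest ratio of its share in members to its share in the other merged regions, 5.64. Lab members held TGATTGAT in 28.5% (interval 23.9 to 33.5%) and TGATTTAT in 7.42%. Pb members held TGATTAAT in 20.9% and TGATTGAT in 19.1%. In Abd-B members the order was the opposite, with TGATTTAT in 16.5% (12.3 to 21.9%), TGATTGAT in 7.83% and TGATTAAT in 3.91%, and Ubx and Abd-A members held TGATTTAT in 18.9% and 16.2% but TGATTGAT in 3.16% and 2.21%. Antp, on the platform of the head proteins, had the highest share of TGATTTAT, 21.6% (15.5 to 29.4%), together with TGATTGAT in 15.7%.

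The contrast was widest where the combinations did not mix. Of the 380 members bound only by head proteins, 78 held TGATTGAT, 64 TGATTAAT and 26 TGATTTAT, whereas of the 80 bound only by trunk proteins 20 held TGATTTAT, 1 TGATTGAT and 0 TGATTAAT, where a count of 0 has a Wilson upper limit of 4.58%. Regions of 1 protein, which were also bound only with Hth, matched the members of that protein in some orders and not in others. Among the 253 regions of Lab alone TGATTGAT was in 32.4%, TGATTTAT in 5.53% and TGATTAAT in 4.74%, and among the 178 regions of Abd-B alone TGATTTAT was in 16.9%, TGATTAAT in 2.25% and TGATTGAT in 1.69%. The 2038 regions of Dfd alone held TGATTAAT most often (7.31%), then TGATTTAT (4.47%) and TGATTGAT (3.34%), whereas Dfd members held TGATTGAT most often (16.4%), then TGATTAAT (13.1%) and TGATTTAT (7.18%). In shared regions also bound without Hth, none of the words exceeded 6.02% for any protein. These word counts were made after earlier counts of the site were seen and carry no test. The study had already described graded preferences of the Hox proteins among these words in its cofactor-enhanced regions.

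Of the other motifs, only the Hth site passed the test. TGACAG was found in 15.9% of members (114 of 719), against 9.39% of all merged regions, and was more frequent in members than in shared regions also bound without Hth for 8 of 8 proteins, by 9.57 points (SD 3.91, adjusted p = 0.028125, exact sign-flip test over 8 proteins). Against the regions of 1 protein the excess was 4.51 points in 7 of 8 proteins (adjusted p = 0.0502232, same exact test). A Hth site was found in 13.1% of the 237 members with an Exd-Hox site and in 17.2% of the 482 without one, 2 intervals that overlap. When the whole region was searched in place of the 200 bp window, the excess over shared regions also bound without Hth was 1.61 points and was not called (adjusted p = 0.0527344, exact test).

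Monomer Hox words did not pass the test in either comparison. The TAAT core, TTAATGA and the form that ends in TA in place of GA, was found in 30.0% of members against 22.6% of all merged regions. The TTAT core, TTTATGA and the forms that end in GG, in TA or in TG, was found in 33.9% against 28.9%. Both can overlap an Exd-Hox word. Within proteins members exceeded shared regions also bound without Hth by 7.20 points for TAAT (SD 11.2, 6 of 8 proteins higher, adjusted p = 0.114258) and by 9.85 points for TTAT (SD 7.95, 6 of 8 higher, adjusted p = 0.0502232, exact sign-flip test for both). The TAAT share differed widely between proteins, with 55% of Pb, 34.8% of Dfd and 34.7% of Lab members, against 13.9% of Abd-B, 6.62% of Abd-A and 4.21% of Ubx members. The GATA site, AGATAA or TGATAA, read by the GATA factors of the haemocyte lineage among others, was found in 31.7% of members against 27.5% of all merged regions (7 of 8 proteins higher than in shared regions also bound without Hth, by 4.13 points, adjusted p = 0.0502232, exact test). Mean GC content was 41.9% in members and 42.4% in all merged regions. The repeat GAGAGAG, bound by GAGA factor at promoters, was in 3.89% of members and 6.43% of all merged regions, and the AP-1 site TGACTCA in 2.50% and 3.10%.

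Members overlapped regions of the cofactors less often than the full set of shared regions also bound without Hth did. Of the 719 members, 326 (45.3%) overlapped a region of the Exd+Hth group, against 56.1% of all merged regions, and 73 (10.2%) overlapped a region of the Hth group, against 29.4%. All 73 also overlapped Exd+Hth, and 393 members (54.7%) overlapped neither. Shared regions also bound without Hth overlapped Exd+Hth in 73.4% and Hth in 44.1%, and regions of 1 protein in 20.3% and 2.96%. Within proteins, members were lower than the former by 28.9 points for Exd+Hth (SD 11.8) and by 44.7 points for Hth (SD 10.1), in 8 of 8 proteins each (adjusted p = 0.028125, exact sign-flip test). They exceeded the latter by 18.2 points for Exd+Hth and 7.03 points for Hth, in 7 of 8 proteins each (adjusted p = 0.0502232, same exact test). Region length moved with these values. With 200 bp centre windows in place of whole regions, the differences from shared regions also bound without Hth were -28.1 and -40.7 points (adjusted p = 0.028125 for both, exact). The gap was not uniform over these shared regions. The 1256 that 1 Hox group bound without Hth overlapped Exd+Hth in 46.1% and Hth in 14.3%, near the members. Those that all 8 Hox groups bound without Hth did so in 98.5% and 91.6%.

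Members of the trunk proteins and of Scr overlapped Exd+Hth more often than those of Lab, Pb and Dfd. Exd+Hth regions were met by 74.7% of Ubx, 74.3% of Abd-A, 67.6% of Scr, 63.5% of Abd-B and 59.7% of Antp members, and by 41.4% of Dfd, 38.3% of Lab and 26.8% of Pb members. The shared regions also bound without Hth varied in a similar way, with 94.5% for Antp, 92.0% for Abd-A, 91.0% for Ubx, 89.8% for Scr, 82.4% for Abd-B, 80.8% for Lab, 73.7% for Dfd and 73.3% for Pb, so the order of the proteins was not a trait of members alone. Overlap also went with the number of proteins, from 38.4% of members of 2 groups to 48.0% of members of 3, 71.2% of members of 4 and 71.4% of the 42 members of 5 or more. Median length rose as well, from 537 bp in members of 2 groups to 635 bp in members of 3 and 739.5 bp in members of 4. These overlaps used whole regions, and the part of length in the rise was not tested. All 7 members of 7 or 8 groups overlapped Exd+Hth. The share with an Exd-Hox site was 30.8% in members of 2 groups, 36.0% in members of 3, 34.8% in members of 4 and 42.9% in members of 5 or more, with intervals that overlap.

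The composite site and the Exd+Hth regions marked partly different members. A site was present in 26.4% of the 326 members that overlapped Exd+Hth (21.9 to 31.4% Wilson) and in 38.4% of the 393 that did not (33.7 to 43.3%). The share was higher without overlap for each of the 8 proteins, from 26.8% against 23.1% in Scr to 50% against 37.5% in Antp, and for head-only (40.4% against 37.4%), mixed (35.8% against 19.5%) and trunk-only members (30.3% against 23.4%). The intervals overlapped for every protein except Dfd, and for head-only and trunk-only members. The proteins share members, so their common direction is not a set of separate observations. In total 477 members (66.3%) had either a site or an Exd+Hth overlap and 86 had both. This split was made after its values were seen and carries no test.

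**Figure D4:**
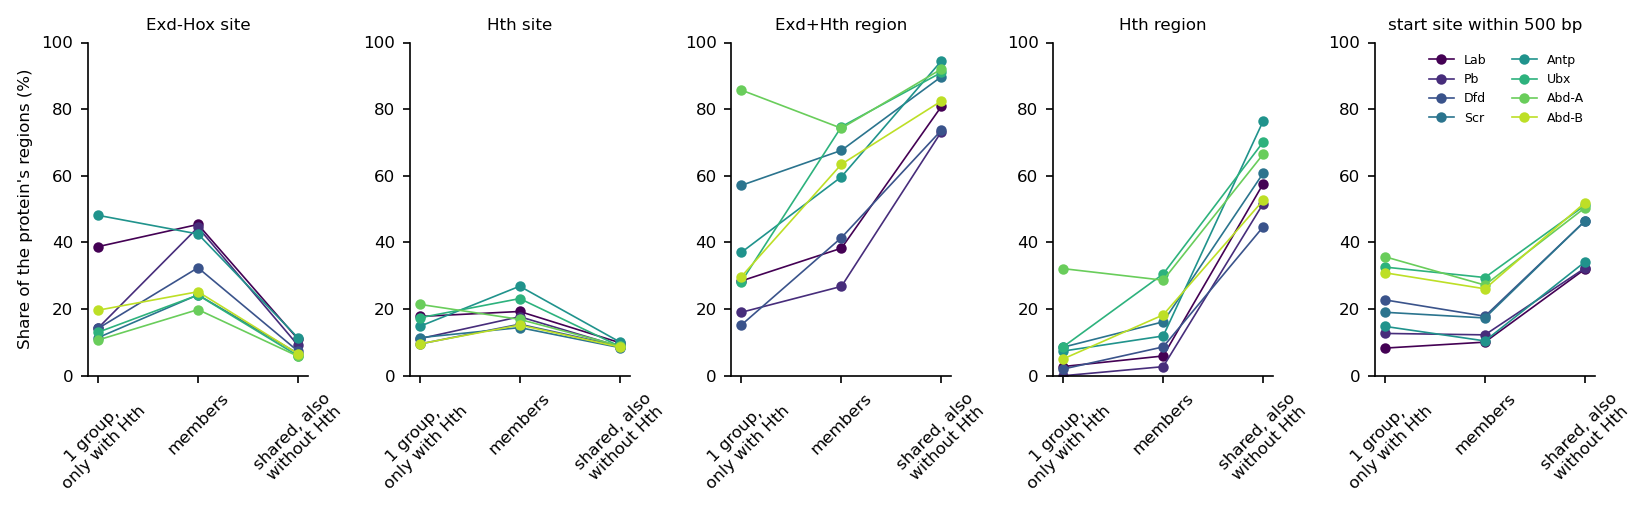
Share (%) of the regions of each Hox protein with Hth that hold an Exd-Hox site or a Hth site, overlap an Exd+Hth or Hth region, or have their centre within 500 bp of a start site, for regions of 1 group bound only with Hth, members, and shared regions also bound without Hth. Each line is 1 protein. In the first and second panels every line falls from members to shared regions also bound without Hth, and in the other panels every line rises.

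Sharing without Hth was graded, and so were these measures. Regions of 2 or more Hox+Hth groups held an Exd-Hox site in 33.0% when 0 Hox groups bound them without Hth, in 13.1% (11.4 to 15.1%) when 1 group did, in 8.30% when 2 did and in 4.78% when all 8 did. Overlap with Exd+Hth ran from 45.3% through 46.1% and 51.3% to 98.5%, and overlap with Hth from 10.2% through 14.3% and 16.0% to 91.6%. The site thus separated members from the regions with 1 Hox group without Hth by more than the intervals, whereas the intervals for Exd+Hth overlap, 41.7 to 49.0% and 43.4 to 48.9%, lay on each other.

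Members lay away from start sites and mostly in introns. Their centre was in an intron in 425 cases (59.1%), in intergenic DNA in 174 (24.2%), in a 5′ UTR in 47, in a noncoding exon in 27, in a coding exon in 23 and in a 3′ UTR in 23. In shared regions also bound without Hth 48.4% of centres were intronic and 17.4% in a 5′ UTR. A start site of any transcript lay within 500 bp of the centre in 17.7% of members (127 of 719), against 37.7% of all merged regions. Within proteins the members were lower than shared regions also bound without Hth by 24.2 points (SD 3.29, 0 of 8 proteins higher, adjusted p = 0.028125, exact sign-flip test), and lower than regions of 1 protein by 3.26 points (7 of 8 lower, adjusted p = 0.0502232, same exact test). The median distance to a start site was 2366 bp in members, 2076.5 bp in regions of 1 protein and 699 bp in shared regions also bound without Hth. Ubx members were nearest to starts, with 29.5% within 500 bp, and Lab members farthest, with 10.1%.

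The members were spread over the chromosome arms, with 140 on 2L, 132 on 2R, 160 on 3L, 173 on 3R, 112 on X and 2 on chromosome 4. They made up 4.80 to 5.35% of the merged regions of the 5 large arms. The median distance from a member to the next was 35792 bp, and 31 members had another within 500 bp. To the nearest Hox region without Hth the median distance was 1504 bp, and 177 members had one within 500 bp. With a distance of at least 1000 bp required, 447 members remained and the difference in Exd-Hox site share from shared regions also bound without Hth was 26.8 points.

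The region with most proteins had other members of many proteins beside it. The region overlapped by all 8 Hox+Hth groups (2L:14559755-14561129) was intergenic, 293 bp from the start of lncRNA:CR44855 and 3241 bp from that of CG3473, and was in the strict list of 7 proteins, all but Scr. It was flanked by the longest member, of 3266 bp (2L:14556387-14559652), which covered the start of lncRNA:CR44854 and overlapped 7 proteins, all but Ubx, and farther along by a member of Lab, Pb, Dfd, Scr and Antp (2L:14565155-14567725). The nearest Hox region without Hth was 13085 bp from the third, and farther from the other two. The first overlapped both the Hth and the Exd+Hth list, the second only Exd+Hth and the third neither.

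The other regions of 7 proteins were intronic. One lay in B4 (2L:13516097-13517323) and lacked only Pb, though a Hox region without Hth was 189 bp away. Another lay in Tet (3L:2813021-2815695), which encodes an enzyme that oxidises methylated bases, and lacked only Lab. No stretch of this Tet region was common to more than 5 of its 7 groups. It was in the strict lists of Dfd and Abd-B only. In Mrtf (3L:2743581-2744636), a coactivator of serum response factor, all but Ubx were present, 6 of them at q 1e-10, and the nearest Hox region without Hth was 20368 bp away. The regions in CG46467 and Glut4EF (3R:9958860-9960033) and in Dys (3R:19582054-19582817) each held an Exd-Hox site within the window and overlapped Exd+Hth but not Hth. They lacked Abd-A and Lab respectively.

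Regions of 6 proteins differed in which proteins they lacked. Those in ChAT (3R:18723502-18724220), which makes acetylcholine, and in CG45092 and chk (2R:6705854-6707036) lacked Ubx and Abd-A and were strict in Lab, Pb and Dfd. Those in klar (3L:526455-527134), needed for the placing of nuclei, and in ps (3R:9427312-9427917), a splicing regulator, lacked Lab and Pb. The klar region was strict in Dfd only and the ps region in Scr only. In the region at lncRNA:CR45232 (2R:16306127-16307101) Lab and Abd-B were missing, and Dfd and Abd-A were strict. The nearest Hox region without Hth was 149 bp away for ps, 212 bp for CG45092 and chk and 339 bp for lncRNA:CR45232. For klar it was 2084 bp and for ChAT 13842 bp away. RapGAP1, which acts on the small GTPase Rap1, and kek2, a transmembrane protein with leucine-rich repeats, each had a region of 6 proteins that overlapped neither Exd+Hth nor Hth and that held a site, shown with the sequences.

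**Figure D5:**
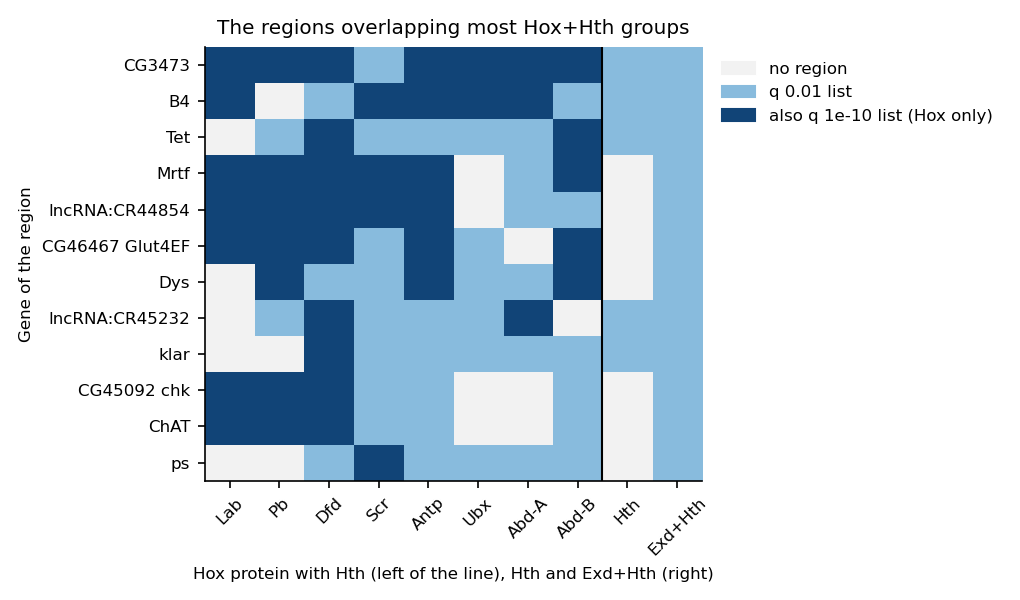
The 12 Hth-dependent shared regions of 6 or more Hox+Hth groups that the naming rule took, by gene (rows), with the Hox+Hth groups that overlap them and overlap with Hth and Exd+Hth (columns). Dark cells were also in the q 1e-10 list, which was used for Hox proteins only. All 12 overlap Exd+Hth, which the rule used to order regions of equal group number, and 5 overlap Hth.

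Of the 13945 protein-coding genes, 640 had a member in the gene or within 1 kb of it, 4.59%, and 92 had at least 2 members and 24 at least 3. Genes with a member were long, with a median of 12552 bp against 2166 bp for all protein-coding genes. The RNA-binding translational repressor gene pum (3R:9066343-9237682) had 6 members out of 24 merged Hox+Hth regions, 3 of them with an Exd-Hox site. The corepressor gene sbb had 5, all of 2 proteins, and none overlapped Exd+Hth. Tet, osp, stx, the RhoGAP gene cv-c and kirre, which encodes an adhesion protein of muscle founder cells, had 4 each. CG44085 had 3 members out of only 5 merged regions, all overlapping Exd+Hth and bound by Scr and trunk proteins between them. The second longest member, of 2796 bp (3L:19935833-19938628), lay 1090 bp from the start of the adenylyl cyclase gene Ac76E and overlapped Lab, Pb and Dfd but neither cofactor list.

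Signalling genes with 3 members included nkd, an antagonist of Wnt signalling, tkv, a type I receptor for BMP ligands, and mam, a coactivator of Notch, whose 3 members all held an Exd-Hox site. The 3 tkv members overlapped Lab, Pb, Dfd, Scr, Antp and Abd-B between them, and all overlapped Exd+Hth. The bZIP gene cnc and the sex determination gene dsx also had 3.

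Gene lists by function are small, and their shares stand beside the 4.59% of all protein-coding genes. Among 16 haemocyte genes 5 had a member (31.25%), 9 members in all, with 3 at Pvf3, a PDGF/VEGF-like ligand, 3 at ush, a partner of GATA factors, and 1 each at Pxn, which encodes an extracellular matrix peroxidase, the Runx gene lz and the GATA gene srp. Of 20 axon guidance and adhesion genes 5 (25%) had a member: NetB, Ten-m, fra, robo2 and unc-5. Of 15 synaptic genes 3 (20%) did, ChAT, brp and para, and of 20 signalling ligand and receptor genes 2 (10%), htl and spi. These lists hold long genes, with medians from 14524 bp for the haemocyte list to 40274 bp for the axon guidance list, and were not compared with the other genes by a test.

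Genes of the Hox system itself had few members in number. Of 8 Hox genes 2 (25%, against 4.59% of protein-coding genes) had any. The Hox genes are long, with a median of 30563 bp against 2166 bp for all protein-coding genes. They were not compared with other genes by a test. Dfd had 1 member, bound by Lab and Scr, and abd-A had 1, bound by Ubx and Abd-B. Of 4 TALE cofactor genes 1 (25%), hth, a gene of 132008 bp, had members, 2 of them. The plasmids carry exons of hth and of the Hox genes, and the authors removed regions over exons in the plasmids. Among 18 known Hox target genes 1 (5.56%), betaTub60D, had members, 2 of Ubx, Abd-A and Abd-B, a share near the 4.59% of protein-coding genes. Of 18 homeobox genes of neural and muscle patterning 2 (11.1%) had members, with 2 at ap and 1 at Lim3. Of 20 segmentation genes 2 (10%) did, with 1 each at ptc, the Hedgehog receptor, and the Runx gene run. Of 15 ribosomal protein genes, short genes with active promoters, 2 (13.3%) had members, RpS3 and RpS9.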

How the data were processed

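Per the study's methods, the authors mapped reads to dm6 (Bowtie 1.2.2) and ran MACS2 (2.1.1.20160309) on every replicate, with input as background, at q 0.01 and q 1e-10. Regions over exons carried by the plasmids were taken out, and overlapping regions of the 2 replicates were united. The deposited lists name a group for each interval, and the score column written by the authors is 0 in every row. Absence from a list can reflect low enrichment or depth as well as no binding.

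The q 0.01 lists were the main data. Members and gene lists were chosen with earlier results of these data known. Coordinates are printed from 1 on dm6. The Release 6 sequence and Ensembl release 115 models were used, with transposable elements left out of the start sites. Motif searches covered both strands of 200 bp around the centre. All 154 gene list entries matched by symbol.

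For each protein with Hth, shares among its members were compared with those among its shared regions also bound without Hth and among its single-protein regions. The 18 differences were tested over 8 proteins by two-sided exact sign-flip permutation (256 sign patterns) with Benjamini-Hochberg adjustment, called below 0.05. Regions named were up to 12 with the most groups (ties by overlap with Exd+Hth, then Hth), the 3 longest and, per protein, the one of most groups with an Exd-Hox site. Genes named were the 12 with most members and up to 4 per list. The nkd, Ork1, RpS3, pxb, RapGAP1 and kek2 regions, the third region near CG3473, the genes cnc and dsx, and the fifth gene of a list were chosen after their values were seen. Scripts were tested on simulated data. Alternatives were stricter lists, other overlaps, distances, windows and start sites, each platform alone, and each protein left out. Software was numpy 2.4.6, matplotlib 3.10.9 and scipy 1.17.1 under Python 3.11.15.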

Additional observations from a re-analysis of the deposited data

Results flagged for a closer look

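The number of regions bound by 1 Hox protein with Hth and by none without it was far higher for Dfd, at 2038, than for the other 7 proteins, whose highest was 253 for Lab. An outlier rule for 8 values flagged this count. The proteins are not replicates and the counts come from the lists that chose the members, so no conclusion is drawn from the rule. List size differs as well, with 11683 merged regions for Dfd+Hth and 7906 for Abd-B+Hth, and its part in the count was not tested.

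For 3 differences every protein of the first platform (Lab, Pb, Dfd, Scr and Antp) moved one way and every protein of the second (Ubx, Abd-A and Abd-B) the other way when members were defined within each platform. The share with a TAAT core exceeded that of shared regions also bound without Hth by 11.2 points on the first platform and was lower on the second (-1.92 points). Against regions of 1 protein these values were 13.2 and -4.57 points. GC content differed from that of shared regions also bound without Hth by -1.30 points on the first platform and by 0.98 points on the second. The difference between the platforms was not tested. Platform and position along the axis cannot be told apart for these 3 proteins.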

How the results depend on the processing

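The 5 called differences, Exd-Hox site, Hth site, Exd+Hth overlap, Hth overlap and start site share against shared regions also bound without Hth, kept their direction in all alternatives run. With 1 protein left out they ranged from 21.8 to 26.7, 7.87 to 10.7, -30.9 to -26.3, -47.7 to -41.8 and -25.8 to -18.2 points, each with p = 0.015625, the smallest that 7 proteins allow in the exact test. The adjusted p was 0.05625 without Lab, without Pb and without Ubx, and 0.0352 to 0.0469 in the other 5 omissions. Against regions of 1 protein the same measures ranged from 7.40 to 13.2, 2.71 to 6.02, 14.2 to 21.6, 4.83 to 8.53 and -7.49 to 2.02 points, and the first 4 were called in 2 of 8 omissions. The TTAT core ranged from 7.06 to 12.1 against shared regions also bound without Hth, the GATA site from 2.22 to 5.98, and GC content from -0.41 to 0.66 points against regions of 1 protein. The number of members ranged from 468 (without Dfd) to 851 (without Abd-B).

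In the following, S is the difference from shared regions also bound without Hth and U that from regions of 1 protein, in points, and the cause of these changes was not tested. With Hox+Hth lists at q 1e-10 there were 150 members, S was 12.3 for TAAT, 10.8 for TTAT and -9.37 for GATA, all called, and U was -15.8 for GATA. With all lists at q 1e-10 U for the Exd-Hox site was 12.9 and S for TTAT 5.63, both called, and U was -0.35 for the Hth site, -1.40 for GATA, 0.22 for GC and 0.64 for start sites. With no Hox region without Hth within 1000 bp there were 447 members, S was 11.0188 for TTAT and 5.37 for GATA, both called, and U was 0.50 for GC and 1.56 for start sites. With 3 or more groups there were 258 members, U was called for the Exd-Hox site (11.8), Hth site (5.80), TTAT (5.89), Exd+Hth (24.0) and Hth overlap (9.58), S for TTAT (11.5) and GC (-1.11), and U for GC was 0.46. On the first platform alone S for start sites was -20.7. On the second there were 227 members, U for TAAT was -4.57 and for Hth overlap 15.8, and S was 0.98 for GC, -13.1 for Exd+Hth and -34.4 for Hth overlap. In whole regions, whose length differs between the classes, U was called for the Exd-Hox site (20.5), Hth site (16.6), TAAT (19.5), TTAT (23.4) and GATA (20.3), and S was -12.1 for TAAT, -8.27 for TTAT, -14.2 for GATA and 0.33 for GC, and 1.61, no longer called, for the Hth site. At the midpoint of the region U for GATA was -0.024 and S for GC 0.48. In 400 bp windows U for the Exd-Hox site (12.5) and Hth site (8.05) and S for TTAT (8.31) were called, and U for GC was 0.17. The other values, 252 of 331, kept direction and call, or moved by less than the spread over proteins where a platform had too few proteins for the test.

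No paired analysis was possible because each list combines both replicates of a group. Exd+Hth overlap was not run at q 1e-10, a list not used here.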
